A study of Homo sapiens with 14 samples.

Results

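ATF2, ATF3, ATF4, ATF7, BATF, BATF2, BATF3, JDP2, MAFF and MAFK are transcription factor genes whose products can pair with JUN or with other members of the AP-1 family. These 10 genes were chosen by name from the AP-1 partner families, out of 20136 protein-coding genes in GENCODE release 44 mapped to GRCh37 (hg19). Each was described by the p-JUN, H3K27ac, H3K4me3 and H3K27me3 peaks that touched its gene body or the 10 kb on either side, a stretch called its window here. The 10 windows do not overlap one another, and they held 31 of 61411 p-JUN regions, a region being the merged extent of overlapping peaks from the 4 p-JUN lists.

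The peaks came from CUT&Tag, where a transposase tethered to an antibody cuts and tags the DNA around the antibody's target. The cells were LX-2, an immortalised human hepatic stellate cell line of wild type genotype, grown for 2 days on either a soft or a stiff matrix, with no other agent. Each matrix gave 2 lists, 1 per library, for p-JUN (phosphorylated JUN), for H3K4me3 and for H3K27me3, and a single merged list for H3K27ac. The stiff histone libraries carry 40K in their titles and the p-JUN libraries labelled stiff carry TCP. TCP is the study's name for culture plastic, so for p-JUN plastic and stiff matrix cannot be told apart. The study's methods speak of biological replicates for its sequencing experiments, but the labels do not tie these lists to separate cultures, so tests measure the spread between libraries, which may be technical. LX-2 is 1 line, so the lists say nothing of other stellate cells.

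AP-1 is a dimer of basic leucine zipper (bZIP) proteins, and the partner of JUN helps to set which DNA sequence the dimer prefers. FOS and JUN dimers favour TGAGTCA, whereas dimers with ATF proteins can take the longer cAMP response element TGACGTCA and small MAF proteins favour sites that start with GC before the TGA. ATF2 and ATF7 are close relatives that stress kinases phosphorylate, ATF3 is an inducible stress gene, and ATF4 is the main effector of the integrated stress response. BATF, BATF2, BATF3 and JDP2 lack a classical activation domain and can compete with FOS for JUN, and MAFF and MAFK are small MAF proteins that pair with NRF2 and related factors. H3K4me3 marks active promoters, H3K27ac active promoters and enhancers, and H3K27me3 repressed chromatin.

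The p-JUN lists held 48163 to 54168 peaks, the H3K4me3 lists 18096 to 18857 and the H3K27me3 lists 6974 to 19843. H3K27ac had 18238 peaks on soft and 13322 on stiff. Median p-JUN summits held 60 to 64 fragments. Of 10 stellate and mesenchymal markers, 6 carried H3K4me3 at the start in all 4 lists (ACTA2, COL1A1, PDGFRB, VIM, TIMP1 and SPARC), and COL1A2, DES and LRAT carried none. All 4 hepatocyte and 3 leukocyte markers carried none, whereas KDR of 2 endothelial and EPCAM of 2 epithelial markers carried it in every list.

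Every window held p-JUN in every list, and the sum of peaks over the 10 windows was close on the matrices. The windows held 28 and 30 p-JUN peaks in the soft lists against 27 and 30 in the stiff lists. The log2 ratio of stiff to soft was -0.03, against 0.01 over all gene windows. A p-JUN peak in all 4 lists was found in 10 of 10 windows, against 67.0% of all windows. H3K4me3 summed to 18 and 18 peaks in the soft lists against 16 and 16 in the stiff lists, and 8 of 10 windows had it in every list, against 71.5% of all windows. The log2 ratio was -0.17, against -0.0012 over all windows. These sums count peaks, so a region split into 2 peaks adds 2. At BATF3 1 merged H3K4me3 region held 2 and 2 peaks in the soft lists against 2 and 1 in the stiff lists. BATF2 had H3K4me3 in 3 of the 4 lists and BATF in none.

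H3K27ac and H3K27me3 parted the genes further. The soft H3K27ac list had 15 peaks in the windows and the stiff list 10, a log2 ratio of -0.58, where all windows gave -0.45. The 95% exact binomial interval of the members' ratio ran from -1.90 to 0.67 and covers counting error only. With both lists cut to the same length the sums were 11 and 10, a log2 ratio of -0.14. H3K27ac was in both lists in 7 of 10 windows, against 40.8% of all windows. ATF2 had a peak in the soft list alone, JDP2 in the stiff list alone and BATF3 in neither. H3K27me3 was in every list at 1 of 10 windows, that of ATF3, against 8.58% of all windows, and no list had it at the other 9 genes.

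**Figure D1:**
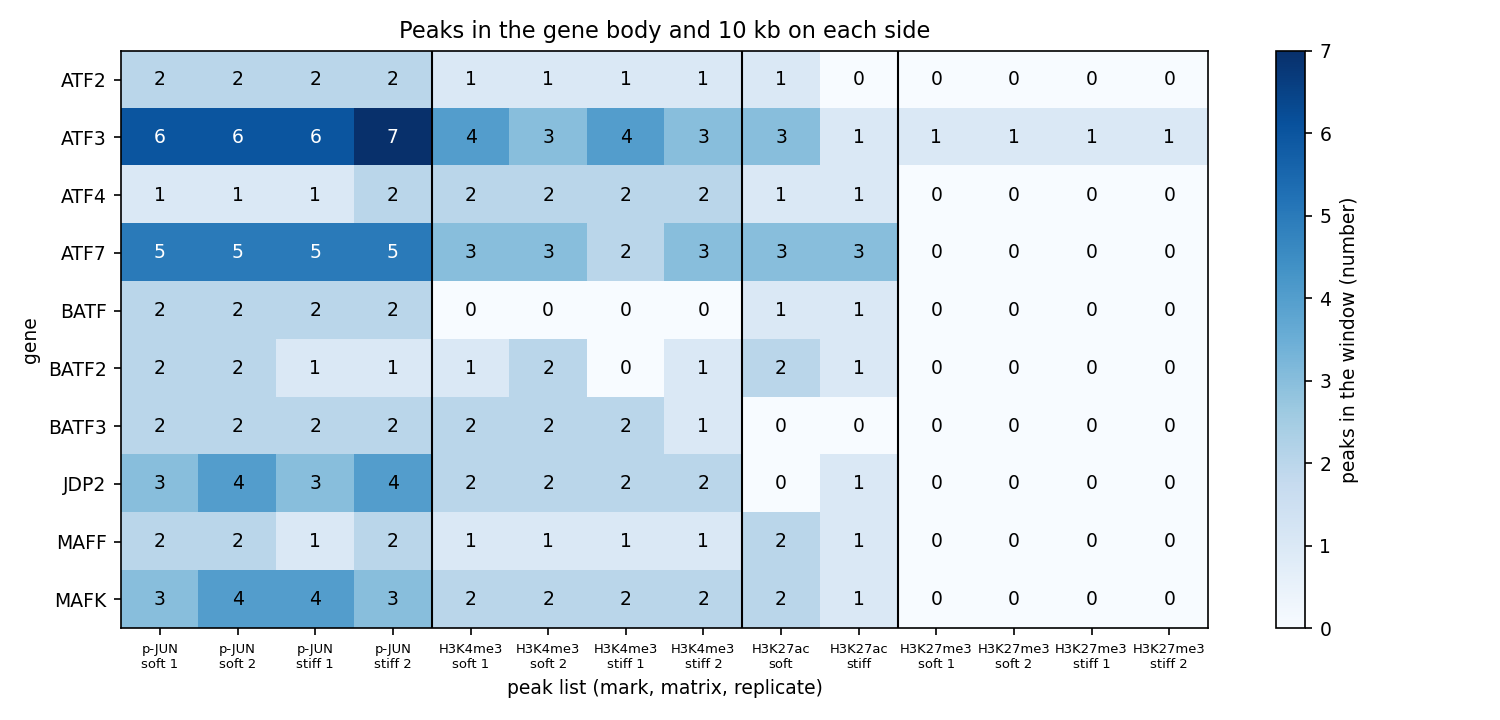
Number of peaks in the gene body and 10 kb on each side for the 10 genes (rows) in each of the 14 lists (columns: mark, matrix and replicate), with darker blue for more peaks. ATF3 has the most p-JUN peaks, 6, 6, 6 and 7, and is the gene with H3K27me3, while BATF2 has 2 p-JUN peaks in each soft list and 1 in each stiff list.

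At the start sites, taken as 1 kb to either side of a coding transcript start, 7 of 10 genes carried p-JUN in all 4 lists (37.5% of all genes did). These were ATF2, ATF3, ATF4, ATF7, BATF3, MAFF and MAFK. JDP2 carried it in 3 lists, all but the first stiff list, and BATF in none. BATF2 carried it in both soft lists and neither stiff list, a pattern of 183 genes or 0.909% of all, and none of the 10 showed the reverse (0.253% of all genes). H3K4me3 was at the start in all 4 lists for 8 of 10 genes (61.7% of all genes), the exceptions being BATF and BATF2. BATF2 again had it in both soft lists alone (35 genes, 0.174%), and none of the 10 had it on stiff alone (0.204%).

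H3K27ac at the start was listed on both matrices for ATF4 and ATF7, 2 of 10 genes (20.9% of all genes). In the soft list alone it was at the starts of ATF2, ATF3, BATF2 and MAFF, 4 of 10 (10.5% of all genes), and in the stiff list alone at none (2.54%). With both H3K27ac lists cut to the same length, or limited to a −log10 q of at least 10, the starts of ATF3 and BATF2 stayed on soft alone and those of ATF2 and MAFF did not. The H3K27ac lists have no replicate, so these counts carry no test.

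BATF2 (chr11:64755417-64764490, minus strand), a gene induced by interferon, was the sole gene of 20136 whose start carried p-JUN, H3K4me3 and H3K27ac on soft alone (0.00497% of genes), and no gene carried all 3 on stiff alone (0%). This pattern was chosen after its values were seen. The p-JUN peak at the start had a fold over local background of 5.58 and 5.82 in the soft lists, with 41 and 38 fragments at the summit and −log10 q of 17.3 and 16.9. It stood at percentiles 23.3 and 23.5 of its lists, a weak peak. The H3K4me3 peak there had folds of 7.65 and 9.51 and stood at percentiles 9.90 and 16.9. The H3K27ac peak had a fold of 8.03 in the soft list and stood at percentile 57.0. No list holds a narrow peak with −log10 q under 5, so a peak missing from the stiff lists is a peak not listed, and signal under that limit was not analysed here. Moving the distance to 500 bp or 2 kb, equal list lengths, a −log10 q of at least 10 and leaving out each replicate number on either matrix all left BATF2 as the sole such gene.

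A second BATF2 region lay 9651 bp upstream of the start, at chr11:64774141-64774932, and was the strongest p-JUN region in the window. Its summit held 435 and 403 fragments in the soft lists against 385 and 433 in the stiff lists. Its percentiles were 98.1 and 98.3 in the soft lists against 98.3 and 98.2 in the stiff lists, so the matrices overlapped. H3K27ac covered it in both lists with folds of 10.8 on soft and 8.82 on stiff, at percentiles 99.7 and 99.5. H3K4me3 was listed there in the second soft and the second stiff library. The 81 bases around its summit, chr11:64774525-64774605 (hg19, plus strand), are shown because it was the strongest region of all 10 windows. Capitals mark TGANTCA, the AP-1 core with any centre base, a motif chosen after these sequences were seen.
BATF2 upstream: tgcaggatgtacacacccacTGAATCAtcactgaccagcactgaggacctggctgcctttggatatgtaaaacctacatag
This stretch did not hold the exact TGAGTCA or TGACTCA. It had TGAATCA, and the nearest copy of TGANTCA lay 15 bp from a summit of the 4 lists.

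**Figure D2:**
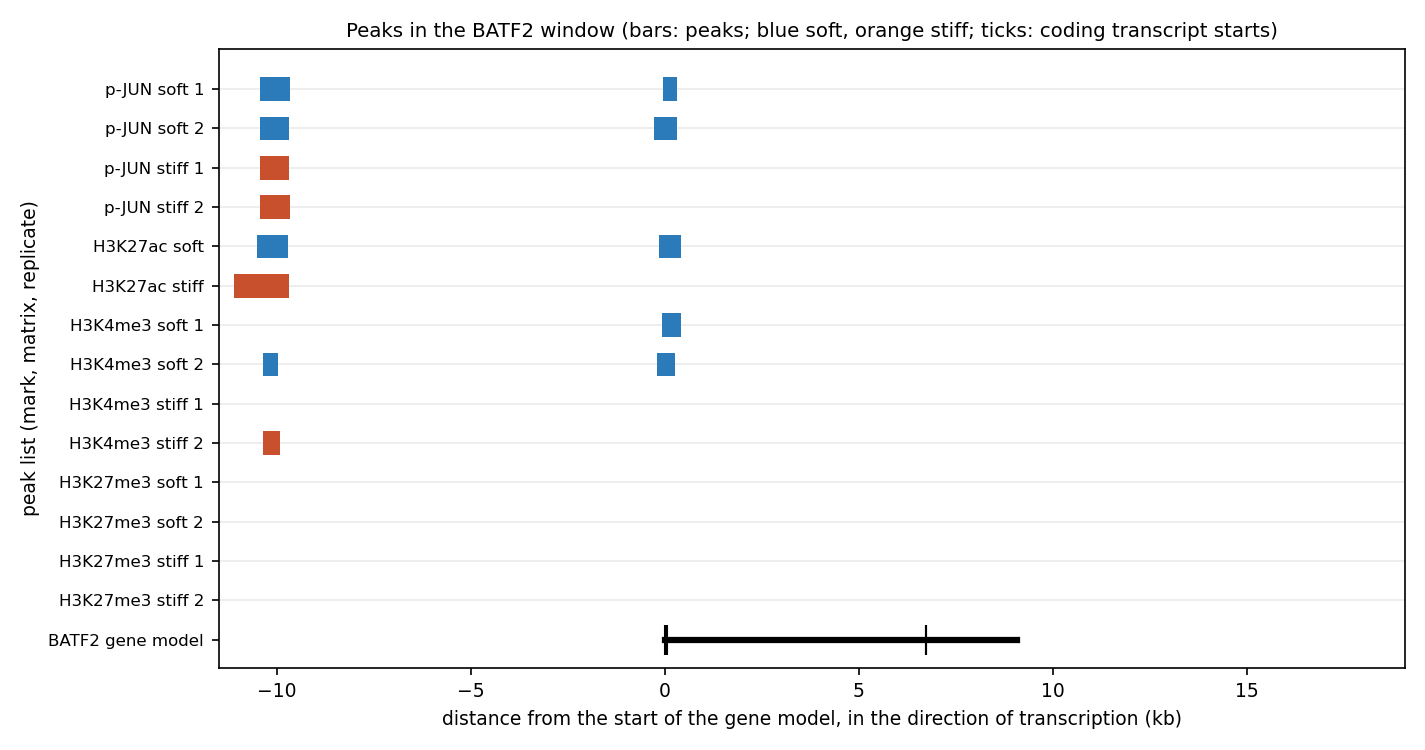
Peaks of the 14 lists (rows) around BATF2, drawn as bars by distance from the start of the gene model in kb along the direction of transcription, with blue for soft and orange for stiff, and with coding transcript starts as ticks on the gene. At the start, p-JUN, H3K27ac and H3K4me3 bars are in the soft rows alone, whereas the p-JUN and H3K27ac bars about 10 kb upstream are in all rows of those marks.

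ATF3 (chr1:212738676-212794119, plus strand) had the richest window, with 7 p-JUN regions, of which 6 were in all 4 lists and the seventh, 14830 bp from the nearest coding start of ATF3, in the second stiff list alone. The region at the inner promoter, chr1:212781329-212782810, was the strongest. Its folds were 10.7 and 11.8 in the soft lists against 11.0 and 12.04 in the stiff lists, with 286, 277, 233 and 306 summit fragments. H3K27ac was listed on this promoter in the soft list alone, with a fold of 6.59 and 23 fragments. It was also on soft alone over an intron region 1259 bp past the outer start. A further intron region, 12117 bp from the nearest coding start of ATF3, had H3K27ac on both matrices, with folds of 7.10 on soft and 5.88 on stiff. H3K4me3 was in all 4 lists at the inner promoter, at the intron region near the outer start and at a region 6306 bp upstream.

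ATF3 was also the gene with H3K27me3. The broad domain merged over the 4 lists spanned chr1:212777865-212781149, just before the inner promoter. Its mean fold was 2.69 and 2.93 in the soft lists and 2.64 and 2.39 in the stiff lists. It stood at percentiles 91.5 and 90.5 of the soft lists and 72.6 and 55.4 of the stiff lists, which hold fewer peaks. In the stiff lists the peak ended 42.473 kb past the outer start in both libraries, and in the soft lists at 41.731 and 40.962 kb. The inner start lies at 43.427 kb. The stiff ends thus fell within 1 kb of that start (954 bp) and the soft ends did not, a pattern of 7 genes or 0.0348% of all. The reverse was shown by 167 genes (0.829%) and by none of the 10. The ATF3 call rests on the 1 kb limit: within 500 bp no list reached the start, and within 2 kb 1 soft list and both stiff lists did. No p-JUN region in any of the windows overlapped an H3K27me3 peak, which was rare among all p-JUN regions too. Genome-wide, 1.09% and 0.596% did in the soft lists and 0.602% and 0.622% in the stiff lists.

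The summit sequences of ATF3 are shown because 3 kinds of bZIP site occurred among them. The first is the upstream region at chr1:212732370-212732450, the second the intron region at chr1:212740531-212740611 and the third the inner promoter at chr1:212781842-212781922 (hg19, plus strand). Capitals mark, in that order, the cAMP response element TGACGTCA, the MAF-type site GCTGANTCA, which holds TGACTCA, and TTGCATCA, the C/EBP-ATF response element that ATF4 can bind.
ATF3 upstream: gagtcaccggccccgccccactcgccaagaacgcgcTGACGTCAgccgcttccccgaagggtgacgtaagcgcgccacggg
ATF3 intron: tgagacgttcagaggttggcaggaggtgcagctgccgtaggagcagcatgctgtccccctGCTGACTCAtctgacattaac
ATF3 inner promoter: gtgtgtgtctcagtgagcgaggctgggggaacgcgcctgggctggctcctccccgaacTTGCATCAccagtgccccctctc
The upstream region was the sole one of the 31 with the cAMP response element within 50 bp of a summit (3.23%, against 0.959% of all p-JUN regions). Its centre lay 0.5 bp from the nearest summit, and TGAGTCA, on either strand, lay 2 bp from the summit of another list. The inner promoter was the sole one with TTGCATCA (3.23%, against 0.767%). Letters alone do not show which protein bound.

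**Figure D3:**
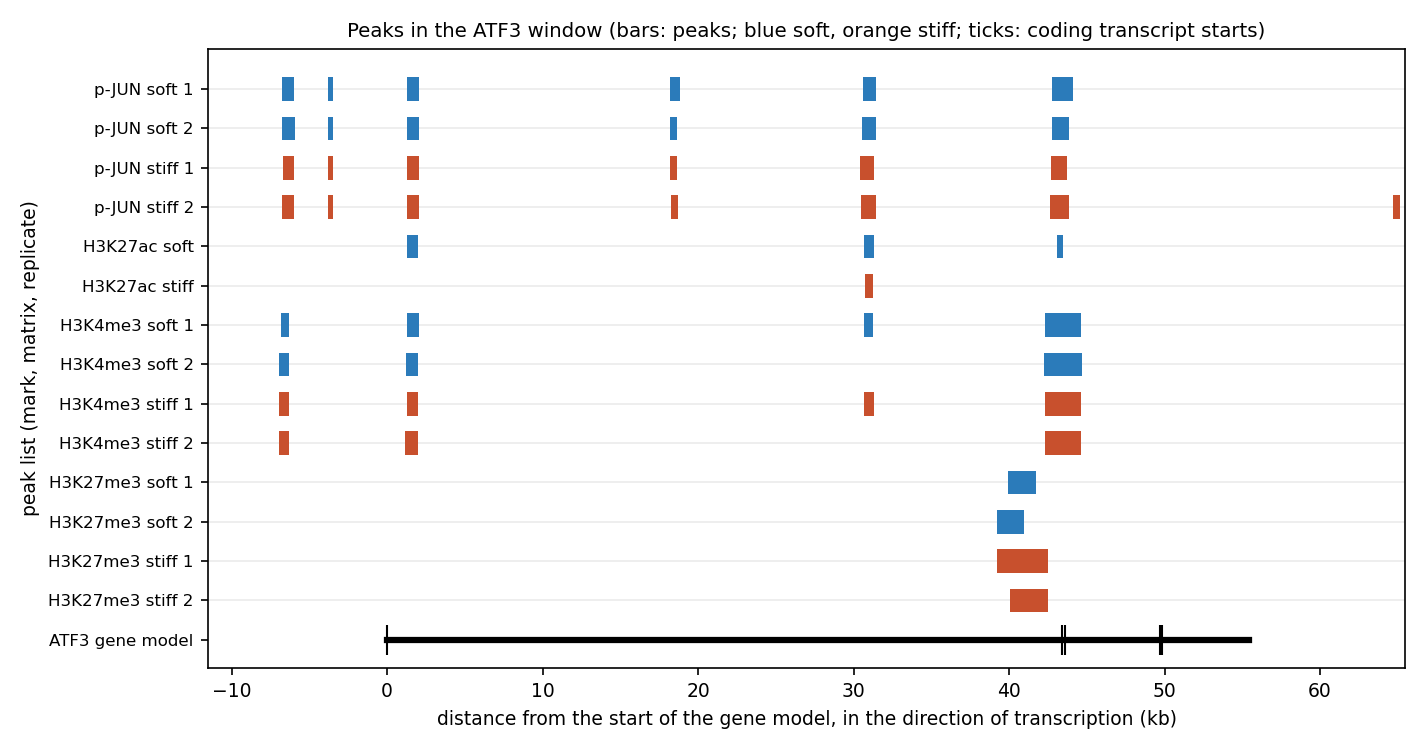
Peaks of the 14 lists (rows) around ATF3, drawn as bars by distance from the outer start of the gene model in kb, with blue for soft and orange for stiff, and with coding transcript starts as ticks on the gene. The p-JUN rows repeat the same 6 positions in all 4 lists, and the H3K27me3 bars end at 42.473 kb in both stiff rows and earlier in both soft rows, before the inner start at 43.427 kb.

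ATF2 (chr2:175936978-176033110, minus strand) held 2 p-JUN regions in every list. The region in an intron, 3369 bp from the nearest coding start of ATF2, had 41 and 42 summit fragments in the soft lists against 48 and 57 in the stiff lists. Its folds of 11.6 and 12.1 on soft lay below 15.0 and 15.4 on stiff, with no overlap between the matrices. The share of all regions with such an order by fold is not given here. In the limma comparison described below, its limma adjusted p was 0.357 with the fold and 0.364 with summit fragments. The region at the start had 35 and 39 fragments in the soft lists against 28 and 29 in the stiff lists. Its folds, 7.26 and 8.56 against 7.78 and 7.80, overlapped between the matrices. H3K4me3 at the start stood between percentiles 81.0 and 84.8 in the 4 lists. H3K27ac was listed there on soft alone, at percentile 9.62, near the foot of the list.

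ATF4 (chr22:39915700-39918688, plus strand) held 1 strong p-JUN region over its start, with 113 and 103 fragments in the soft lists against 83 and 97 in the stiff lists. H3K27ac at that start had a fold of 7.97 on soft and 5.77 on stiff, at percentiles 85.2 and 42.7. The peaks of its window away from its own start lay at the start of RPS19BP1 downstream. ATF7 (chr12:53901640-54020194, minus strand), the largest of the 10 genes, held 5 p-JUN regions in all 4 lists. The one over its start had folds of 13.5 and 15.1 in the soft lists against 14.1 and 17.7 in the stiff lists. H3K27ac covered it on both matrices, with folds of 11.3 and 12.8, and stood at percentiles 96.3 and 98.5. One of the 5 regions is not at ATF7 but at the shared promoter of MAP3K12 and TARBP2, within the flank.

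BATF (chr14:75988798-76013336, plus strand), a factor best known from T cells, carried neither p-JUN nor H3K4me3 nor H3K27ac at its start. Its intron region, 13130 bp from the nearest coding start of BATF, had 124 and 97 fragments in the soft lists against 117 and 118 in the stiff lists. H3K27ac covered that region with folds of 9.56 on soft and 8.16 on stiff. BATF3 (chr1:212859759-212873182, minus strand), a gene needed for a class of dendritic cells, differed from BATF in that its start carried p-JUN and H3K4me3 in all 4 lists. The H3K4me3 there stood between percentiles 43.1 and 53.6. Like BATF, BATF3 carried no H3K27ac at its start. Its p-JUN region at the start was weak, with 35 and 30 fragments in the soft lists against 41 and 29 in the stiff lists.

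JDP2 (chr14:75894419-75940814, plus strand), a repressor of AP-1, had its strongest p-JUN region 5050 bp upstream, with 157 and 129 fragments in the soft lists against 132 and 164 in the stiff lists. The region at its start was among the weakest in its lists, with 31 and 28 fragments on soft, 26 in the second stiff list and no peak in the first. An intron region 10422 bp from the nearest coding start of JDP2 was listed in the second soft list with 27 fragments and in both stiff lists with 40 and 37. A further intron region carried H3K27ac in the stiff list alone, with a fold of 6.43 and 25 fragments.

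MAFF (chr22:38596774-38612514, plus strand) had a broad p-JUN region over its start, with 203 and 172 fragments in the soft lists against 170 and 215 in the stiff lists. H3K27ac was listed at its start on soft alone, at percentile 4.95, and on both matrices at a region downstream of the gene, 4989 bp from the nearest coding start of MAFF. MAFK (chr7:1570338-1582679, plus strand) had 3 p-JUN regions, all in 4 lists. The one 9525 bp upstream held 429 and 391 fragments in the soft lists against 359 and 401 in the stiff lists and stood at percentiles 97.6 to 97.8. Neither H3K27ac nor H3K4me3 was listed over it, which sets it apart from the BATF2 region at a like distance. The other MAFK regions lay in introns and carried H3K27ac peaks of low fold, 3.94 and 3.46 on soft and 3.50 on stiff.

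Stretches with an AP-1 motif beside a summit are given for 5 more genes (hg19, plus strand), to show which form of the site each holds. They are ATF2 at chr2:176019420-176019500, ATF7 at chr12:53955511-53955591, BATF at chr14:76002340-76002420, JDP2 at chr14:75909458-75909538 and MAFK at chr7:1573609-1573689. Capitals mark TGANTCA, with the flanking GC of a MAF-type site where there is one.
ATF2 intron: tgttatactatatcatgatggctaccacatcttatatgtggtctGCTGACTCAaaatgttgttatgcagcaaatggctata
ATF7 intron: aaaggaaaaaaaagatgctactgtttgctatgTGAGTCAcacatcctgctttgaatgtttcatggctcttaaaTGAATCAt
BATF intron: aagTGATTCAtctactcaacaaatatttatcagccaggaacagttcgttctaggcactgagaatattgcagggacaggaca
JDP2 intron: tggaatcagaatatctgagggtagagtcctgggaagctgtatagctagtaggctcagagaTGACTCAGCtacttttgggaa
MAFK intron: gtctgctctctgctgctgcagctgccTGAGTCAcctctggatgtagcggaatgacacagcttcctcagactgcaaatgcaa
Of the stretches shown, those of ATF2 and JDP2 held the MAF-type site, those of ATF7 and MAFK TGAGTCA without it, and that of BATF TGATTCA. Another ATF7 intron region, chr12:53969257-53969921, had a MAF-type site 25 bp from a summit. In all, 9 of the 31 regions had TGAGTCA or its reverse complement TGACTCA within 50 bp of a summit, or 29.0% (95% Wilson interval 16.1 to 46.6), against 37.4% of all p-JUN regions. With any centre base the counts were 14 of 31, or 45.2%, against 45.0%. MAF-type sites, which contain TGANTCA, were beside 5 of the 31 summits, or 16.1%, against 7.05%. Regions are not replicates, and these shares are descriptions.

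The p-JUN regions of the 10 genes overlapped H3K27ac and H3K4me3 peaks more often than all p-JUN regions genome-wide. H3K27ac overlapped 15 of 31 on soft and 10 of 31 on stiff (48.4% and 32.3%), against 26.9% and 20.1% of all regions. H3K4me3 overlapped 14 or 15 of 31 in each list, against 20.1% to 21.4% of all regions. A coding start lay within 1 kb of 11 of 31 (35.5%, against 18.0%). Choosing windows around genes favours regions near starts and can favour these overlaps. The p-JUN regions inside the windows of all genes were not compared. The median window held 6.004 p-JUN regions per 100 kb, against 3.19 over all genes, while the median number of regions per window was 2 in both. ATF3 and MAFK were the densest, with 9.28 each, and ATF2 the sparsest, with 1.72.

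Regions seen on a single matrix were counted under unlike rules for the marks. For p-JUN and H3K4me3 both lists of 1 matrix and neither list of the other had to hold the region. H3K27ac has 1 list per matrix, so every unshared region counted, and its lists differ in length (18238 and 13322 peaks). The shares therefore cannot be compared between marks. Of the 31 p-JUN regions, 25 were called in all 4 lists (65.8% of all regions were). The start of BATF2 was the sole soft-only region (1.74% of all), and there was no stiff-only region (2.75%). Of 18 H3K4me3 regions, 14 were called in all 4 lists (78.9%), 1 on soft alone (1.25%), at BATF2, and none on stiff alone (1.77%). Of 18 H3K27ac regions, 7 were in both lists (54.1%), 8 in the soft list alone (35.0%) and 3 in the stiff list alone (10.9%). The 3 on stiff alone lay in introns of ATF7, JDP2 and MAFK. The MAFK one lay next to a weak soft-only H3K27ac peak within the same p-JUN region, so that p-JUN region carried H3K27ac on both matrices.

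The strongest p-JUN peak of each window, as a percentile of its own list by −log10 q, separated the matrices at 4 of 10 genes. For ATF2 it was 47.7 and 51.6 in the soft lists against 60.3 and 62.7 in the stiff lists. For MAFF it was 83.0 and 80.7 in the soft lists against 83.1 and 86.1 in the stiff lists. Both stiff lists were thus higher at 2 genes, where 18.3% of 13501 windows show this. Both soft lists were higher at ATF4, with 75.8 and 74.3 in the soft lists against 68.4 and 72.6 in the stiff lists, and at MAFK, with 97.8 and 97.8 against 97.7 and 97.6. Across all windows 26.3% show that order. A two-sided exact permutation test with 2 lists per matrix gave 0.33 for each of the 4, the smallest p it can give. With the deposited fold in place of the percentile, ATF2, MAFF, BATF and MAFK were higher on stiff and no gene was higher on soft, so the order at MAFK turned. The share of all windows with each order by fold is not given here. This fold was not centred by list. The median fold of a whole p-JUN list was 7.88 and 8.02 on soft against 7.97 and 8.32 on stiff. Whether that list-wide difference set the order at these genes was not tested.

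**Figure D4:**
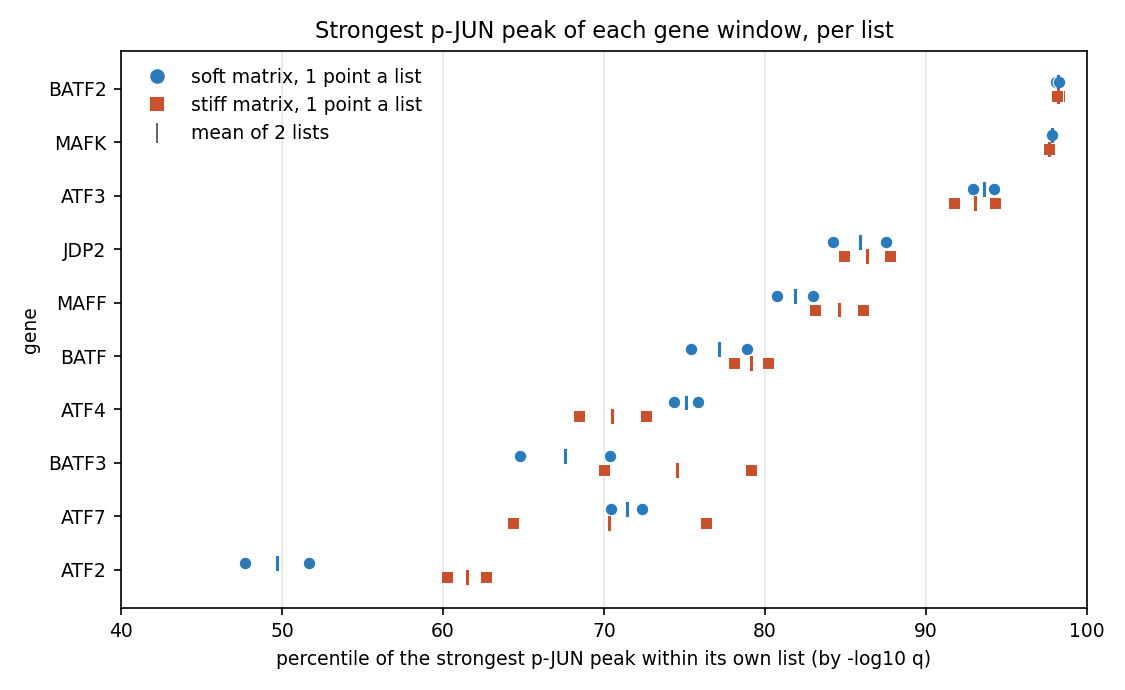
Percentile of the strongest p-JUN peak of each gene window within its own list (x axis, 100 is the strongest), with 1 point per list, blue circles for soft, orange squares for stiff and a bar at the mean of 2 lists. BATF2 and MAFK sit above 97 in all lists, and ATF2 shows the widest gap, 47.7 and 51.6 on soft against 60.3 and 62.7 on stiff.

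In order of mean percentile the genes ran BATF2, MAFK, ATF3, JDP2, MAFF, BATF, ATF4, BATF3, ATF7 and ATF2. The 4 values of BATF2 lay above those of MAFK, those of MAFK above those of ATF3, those of ATF3 above those of JDP2, those of MAFF above those of BATF, and those of ATF7 above those of ATF2. Each of the other neighbouring pairs overlapped.

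The fold of each region in all 4 lists was compared between the matrices with limma on log2 values. Of 40433 p-JUN regions, none passed an adjusted p of 0.05 (0%) and 3773 had an unadjusted p below it. The windows held 25 of the regions tested, of which none passed and 3 had an unadjusted p below 0.05, all with higher values on stiff. The ATF2 intron region was 0.31 ± 0.08 (SE) higher on the log2 scale, with a limma adjusted p of 0.357. The BATF region downstream was 0.44 ± 0.17 higher (adjusted p = 0.498), and an ATF7 intron region 0.24 ± 0.11 higher (adjusted p = 0.534). The median over the 25 was 0.02, against -0.01 over all regions.

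When the fragments at the summit replaced the fold, limma called 5478 of the 40433 regions (13.5%), and 2 of the 25 were among them. With fragments 11351 of the 40433 regions had an unadjusted p below 0.05. Of the 25, 7 did, a like share, all with lower values on stiff, where the 3 with the fold were higher. The median over the 25 was -0.07, against -0.05 over all regions. The ATF3 upstream region with the cAMP response element held 221 and 204 fragments in the soft lists against 151 and 196 in the stiff lists. It was lower on stiff by a log2 difference of -0.36 ± 0.10 (SE, limma adjusted p = 0.00975). The MAP3K12 and TARBP2 promoter in the flank of ATF7 held 106 and 90 fragments in the soft lists against 58 and 96 in the stiff lists, with -0.44 ± 0.15 (limma adjusted p = 0.0347). In both, the second stiff list lay near the soft lists and the first lay lower. With the fold neither passed (limma adjusted p = 0.657 and 0.995). In the fragment fit for p-JUN the SE and p rest almost wholly on a spread pooled over all regions, and little on each region's own lists. The weight of that pooled spread, as prior degrees of freedom, was 279, against 6.31 with the fold. Of 16098 H3K4me3 regions, limma called none with the fold (0%, with 1607 at an unadjusted p below 0.05) and 718 with the fragments (4.46%). None of the 14 in the windows was called either way, and the smallest adjusted p among them were 0.509 and 0.172.

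**Figure D5:**
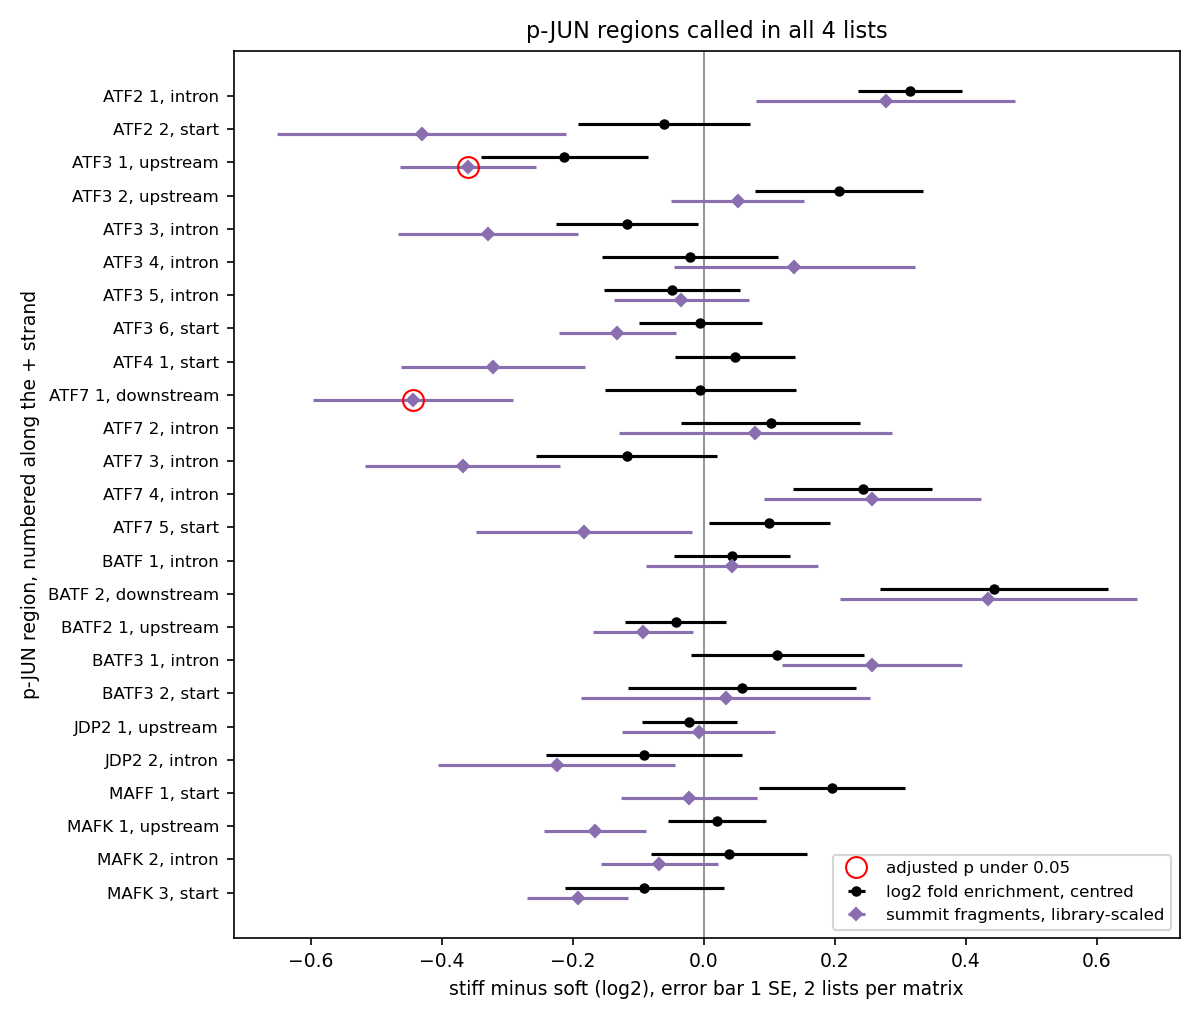
Stiff minus soft difference (log2, x axis) with bars of 1 SE for the 25 p-JUN regions called in all 4 lists, by gene (rows, numbered along the plus strand), from the fold over local background (black) and from summit fragments (purple, scaled by library median). Red rings mark the 2 regions with an adjusted p below 0.05, ATF3 upstream at -0.36 and the flank of ATF7 at -0.44, both from fragments.

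A list of 33 further bZIP genes was set beside the 10. Their windows held p-JUN in every list at 29 of 33 (67.0% of all windows), and their starts at 24 of 33 (37.5% of all genes). H3K4me3 was at the start in every list for 28 of 33 (61.7%). H3K27ac was at the start on both matrices for 11 of 33 (20.9%). It was in the soft list alone for 4 (10.5%) and in the stiff list alone for none (2.54%). No p-JUN or H3K4me3 start of these 33 was on a single matrix, which is near the shares over all genes. Those were 0.909% on soft alone and 0.253% on stiff alone for p-JUN, and 0.174% and 0.204% for H3K4me3. Peaks near a gene do not measure its expression, and RNA levels were not used here.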

How the data were processed

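CUT&Tag peaks of LX-2 cells were analysed as 14 lists. The authors' pipeline was Trim Galore for trimming, Bowtie2 for alignment to hg19, Picard for duplicates and MACS2 for peak calling, and the version, options and control of MACS2 are not given in the sources used here. Each peak was deposited with a fold, a ratio of summit height over the background around it. The authors also deposited −log10 values of p and q and a score derived from them. The summit offset was deposited as a distance in bp. H3K27me3 peaks are broad, with deposited values averaged over the peak. No scaling between lists was applied, and list length can follow depth. No genome-wide read total was used, and depth is known as summit fragments alone, which were solved from fold and p as whole numbers (relative error under 1e-04) for 100% of p-JUN and H3K4me3 and at least 99.9775% of H3K27ac peaks.

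Peaks on 24 chromosomes (2 to 8 per list were left out) were joined to windows with at least 1 bp of overlap, and no peak ran beyond a GRCh37 chromosome end. Samples were grouped by the treatment label. Motifs were searched on both strands of GRCh37 with the centre within 50 bp of a summit. AP-1 was searched as TGAGTCA (and as TGANTCA), the cAMP response element as TGACGTCA, the MAF-type site as GCTGANTCA and the C/EBP-ATF element as TTGCATCA. limma 3.58.1 (R 4.3.3) was fitted with a mean-variance trend to median-centred log2 folds of all regions in 4 lists, with Benjamini-Hochberg adjustment over all of them. On simulated data it recovered 100% of 100 regions planted at log2 1 among 40433 p-JUN regions. The simulation gave every region the same spread (SD 0.118), whereas the spread in the real lists differs between regions. It checks the fit and does not measure its power on the real lists. Other steps ran in python 3.11.15 with pandas 2.3.3, numpy 2.4.6 and scipy 1.17.1, and figures in matplotlib 3.10.9. Named genes were the 10 members. Named regions were the strongest p-JUN region of each gene and those on a single matrix, and other regions were named after their values were seen. The sequence of the p-JUN region at the BATF2 start is not reported here. Members and lists were chosen with earlier results of these data known. Alternatives covered the flank, a −log10 q limit, list length, fragments, centring, trend, the replicate block and leaving out each library.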

Additional observations from a re-analysis of the deposited data

How the results depend on the processing

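Of 107 alternative values, 86 stayed near the main value (counts within 1.5 times, other values within the spread between libraries or the counting interval). The H3K4me3 sum over the windows, at -0.17, became -0.063 with a 25 kb flank, -0.13 with a −log10 q of at least 10 and -0.13 at equal list lengths. The H3K27me3 sum, at 0, became -0.58 with a 25 kb flank, where 1 more soft peak entered. The p-JUN regions on 1 matrix alone were 2 in place of 1 at equal list lengths and 1 to 3 with a library left out (2 without soft replicate 2, 3 without stiff replicate 1 and 3 without stiff replicate 2). Genes whose strongest p-JUN peak did not overlap between matrices were 5 to 8 with a library left out, in place of 4 (8 without soft replicate 1, 8 without stiff replicate 1 and 7 without stiff replicate 2). Within that count MAFF turned to higher on soft with a 25 kb flank, and MAFK to higher on stiff with the deposited fold. Leaving out a library can only keep or raise this count of genes, and it makes calls on 1 matrix alone easier to meet. The direction of both changes thus followed from the rule, and no share over all windows or regions is given at those settings. The limma count for p-JUN, 0, became 5478 with summit fragments, 41 with the replicate block, 14 without soft replicate 1 and 23 without soft replicate 2, and stayed 0 without either stiff library. For H3K4me3, 0 became 718 with summit fragments and 1 without soft replicate 2, with a range of 0 to 1 over the libraries left out. The H3K27ac sum, at -0.58, was -0.14 at equal list lengths. H3K27ac starts on soft alone were 2 in place of 4 at equal list lengths and at a −log10 q of at least 10, and the H3K27me3 start on stiff alone (ATF3) was lost within 500 bp and within 2 kb, settings chosen after seeing the data. Except where stated, the cause was not tested. Replicate numbers did not pair the libraries (correlation of same-numbered deviations 0.0047 for p-JUN and -0.050 for H3K4me3), and the replicate block changed no call among the members. With the block the p-JUN sum was -0.026, that of H3K4me3 -0.17 and that of H3K27me3 0. With 2 libraries per matrix an exact permutation test cannot go below 0.33, H3K27ac has no replicate, and signal under the lists' thresholds was not analysed here.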
